A study of Mus musculus with 6 samples.

Results

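The data described here are the H3K27ac and H3K27me3 peaks of ES49, a mouse cell line of EWS-FLI1-induced Ewing sarcoma, a tumour type driven by the fusion of an RNA-binding protein with an ETS transcription factor. Members were taken by antibody and chromosome: every peak of the ES49 H3K27ac list and of the ES49 H3K27me3 list on chromosomes 1 to 19, with X and Y left out. That gave 48421 regions, 29009 of H3K27ac and 19412 of H3K27me3, of 76477 peaks in the 5 lists of the series. ChIP-seq, which sequences the DNA bound to an immunoprecipitated protein, was done in the series for EWS-FLI1 (through a FLAG tag) and for histone marks, on ES49 and on another such line, ES48. Both lines have a Balb/c background and were grown without any special treatment. Each mark in ES49 is 1 library, and H3K27ac of ES48, with 25313 autosomal peaks, serves below as another library of the active mark, from another tumour line. The lists hold no expression values, so the labelled cell type could not be checked against markers. There are no replicates, so no difference below has a replicate check and none was tested. Intervals are exact binomial 95% intervals (Clopper-Pearson for shares, order statistics for medians). They cover counting error within a list and treat peaks as independent, which peaks that lie in runs are not. Positions are in mm9, as deposited, counted from 1.

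Acetylation of lysine 27 of histone H3 marks active promoters and enhancers. Trimethylation of the same residue is laid down by Polycomb repressive complex 2 and marks silenced genes, in mammals above all developmental regulators such as the Hox genes and genes with CpG-rich promoters. A single lysine cannot carry both groups, so on 1 histone tail the marks exclude each other. Neighbouring nucleosomes, the copies of a locus and different cells of a culture can still differ.

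H3K27ac peaks took up more of the genome than H3K27me3 peaks and were wider, in lists whose read depths are unknown. H3K27ac covered 35.1 Mb, 1.46% of the 2410 Mb between the first and last peak of the autosomes, at 12.04 peaks per Mb. H3K27me3 covered 16.4 Mb, 0.682% of that span, at 8.05 peaks per Mb. The median H3K27ac peak was 836 bp wide (821 to 850; quartiles 451 and 1632) and the median H3K27me3 peak 500 bp (495 to 504; quartiles 371 and 786). In ES48 the median H3K27ac peak was 1485 bp wide, so the 2 libraries of the same mark lay farther apart in width than the 2 marks of ES49.

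H3K27me3 had many short peaks and a few very long ones, with others of every width between. Peaks up to 0.5 kb made up 50.04% of H3K27me3 (49.3 to 50.7) and 30.4% of H3K27ac (29.9 to 30.9). Peaks over 5 kb were 1.41% of H3K27me3 and held 12.9% of its covered length, against 1.17% and 6.61% for H3K27ac. The widest H3K27me3 peak, 35.3 kb at chromosome 11 96121389 to 96156690, lay 183.3 kb from the nearest H3K27ac peak. The next, 26.0 kb at chromosome 11 96156710 to 96182755, began 0.019 kb farther on, so the 2 calls form an almost unbroken stretch. The widest H3K27ac peak, 19.02 kb at chromosome 5 120118763 to 120137779, lay 520.4 kb from the nearest H3K27me3 peak. Within each list the caller's score rose with width (Spearman's rho 0.951 for H3K27ac and 0.936 for H3K27me3, across peaks, which share a library and a caller). Scores below 100, in a list that starts at 50, were held by 57.2% of H3K27me3 and 38.5% of H3K27ac peaks. The scale of the score is not stated, so these shares do not rank the marks by strength.

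Both marks were densest on chromosome 11, and H3K27me3 varied more between chromosomes than H3K27ac. H3K27me3 ranged from 2.29 peaks per Mb on chromosome 10 to 23.3 on chromosome 11, a 10.2-fold range around a median of 6.13. H3K27ac ranged from 6.25 on chromosome 14 to 27.04 on chromosome 11, a 4.33-fold range, and ES48 H3K27ac from 6.62 to 18.4 on the same chromosomes. Over the 19 autosomes the covered lengths per Mb of both ES49 marks had a Spearman's rho of 0.509 (Pearson's r 0.829). Without chromosome 11 rho was 0.422 and r was 0.522. H3K27ac of ES49 against ES48 gave 0.882 by rank. The points share their libraries, and the part of gene density and base composition was not tested.

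**Figure D1:**
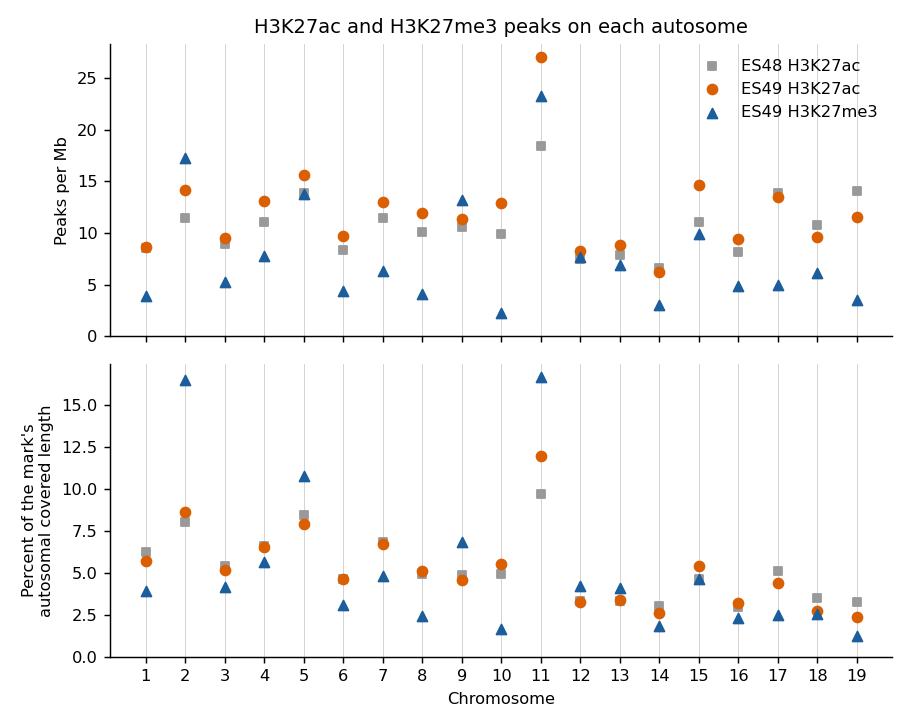
Peaks per Mb (upper panel) and percent of each mark's own autosomal covered length (lower panel) on the 19 autosomes, for ES49 H3K27ac (circles), ES49 H3K27me3 (triangles) and ES48 H3K27ac (squares), 1 library each. Chromosome 11 is highest for every list in the upper panel, and chromosomes 2 and 11 hold 16.5% and 16.7% of H3K27me3 against 8.62% and 11.95% of H3K27ac.

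Set against each mark's own total, some chromosomes leaned to Polycomb and others to acetylation. Chromosomes 2 and 11 together carried a large part of H3K27me3, with 16.5% and 16.7% of its covered length, and chromosome 5 added 10.8%. Chromosome 2 leaned most to H3K27me3: its share of H3K27ac was 8.62%, 0.522 of its H3K27me3 share. Chromosome 9 (0.673), chromosome 11 (0.717) and chromosome 5 (0.735) also had a lower share of H3K27ac than of H3K27me3, with chromosomes 12 and 13 nearer to an equal share (0.775 and 0.823). Chromosome 10 leaned most to acetylation, with 5.56% of H3K27ac and 1.67% of H3K27me3, a ratio of 3.34, followed by chromosome 8 (2.09) and chromosome 19 (1.91). The median width of H3K27me3 peaks ranged from 454 to 554 bp and that of H3K27ac from 757 to 996 bp, so the chromosomes differed in number of peaks far more than in width. The share of H3K27ac in ES49 over that in ES48 ran from 0.731 on chromosome 19 to 1.23 on chromosome 11. Over the chromosomes its rho with the H3K27me3 share over the H3K27ac share was 0.140. The ES49 H3K27ac share is on top in the first ratio and below in the second, which lowers this value by construction. With the H3K27me3 covered length per Mb in place of the second ratio, rho was 0.272 and Pearson's r 0.497. The part of DNA copy number in these chromosome shares was not tested.

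Per 1 Mb bin, the marks met in the same megabases more often than each stood alone. Of 2424 bins, 1135 (46.8%, 44.8 to 48.8) held both marks, 704 (29.0%) H3K27ac alone, 151 (6.23%) H3K27me3 alone and 434 (17.9%) neither. Bins with both held 97.3% of the H3K27me3 length and 76.4% of the H3K27ac length. A bin with H3K27me3 alone was thin, with a median of 1.87 kb and 2 peaks, where bins with both had 5.38 kb and 6 peaks of H3K27me3. H3K27ac of ES48 was present in 33.8% of the bins with H3K27me3 alone, in 22.8% of those with neither mark and in 97.6% of those with H3K27ac alone.

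Polycomb was the more concentrated mark. The densest 1% of bins, 25 in number, held 21.5% of H3K27me3 and 11.02% of H3K27ac, and the densest 10% held 69.6% and 48.4%. It took 113 bins to reach 50% of H3K27me3 and 258 to reach 50% of H3K27ac. Of the 243 densest bins of each mark, 80 (32.9% of each set) were the same.

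H3K27me3 grew more frequent with the amount of H3K27ac in the bin. It was present in 25.8% of the 585 bins without H3K27ac. Among bins with H3K27ac, cut by its length into 5 classes of equal size, the share with H3K27me3 went 44.3%, 51.4%, 64.0%, 69.3% and 79.6%, and the mean H3K27me3 length from 2.76 kb to 17.0 kb per bin. The most acetylated class, with 29.2 to 218.1 kb of H3K27ac per Mb, held 38.0% of all H3K27me3. Over all bins the rank correlation of the covered lengths was 0.441 (Pearson's r 0.293), where H3K27ac of ES49 and ES48 had 0.941. Among the 1990 bins with at least 1 mark it was 0.264, and in smaller bins with at least 1 mark it was 0.026 at 0.5 Mb and -0.281 at 0.2 Mb. Leaving out bins with neither mark lowers such a value by construction. The bins share their libraries, and the part of gene density and mappability was not tested.

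**Figure D2:**
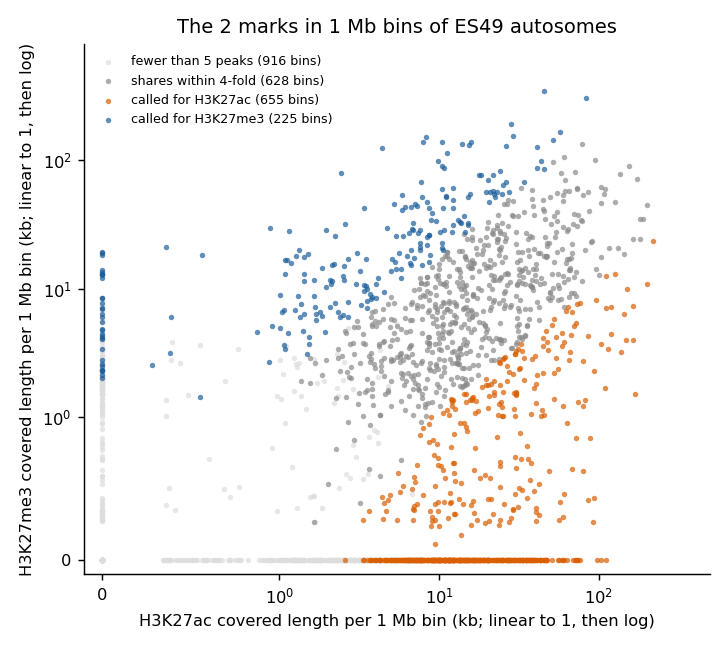
Covered length of H3K27ac (x axis) and H3K27me3 (y axis) in kb in each of 2424 bins of 1 Mb on the ES49 autosomes, on axes that are linear to 1 kb and logarithmic beyond; colours give the call of each bin. The cloud rises to the right, and 655 bins called for H3K27ac and 225 called for H3K27me3 lie on either side of 628 bins whose shares are within 4-fold of each other.

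A bin was called for a mark when it held at least 5 peaks and its share of that mark's covered length was at least 4 times its share of the other mark. Of 1508 bins with 5 peaks, 655 (43.4%) were called for H3K27ac and 225 (14.9%) for H3K27me3. Those called for H3K27ac held 47.5% of the H3K27ac length and 2.76% of the H3K27me3 length. Those called for H3K27me3 held 46.6% of the H3K27me3 length and 5.05% of the H3K27ac length. Of the 655 bins called for H3K27ac 406 had no H3K27me3 at all, and of the 225 called for H3K27me3 32 had no H3K27ac. Over all 2424 bins H3K27ac was present in 1839 and H3K27me3 in 1286, so lack of H3K27me3 was the commoner state to begin with. How far these totals account for the contrast was not tested. The median bin called for H3K27me3 had 3.74 kb of H3K27ac beside 17.6 kb of H3K27me3. Chromosome 10 had 63.3% of its compared bins called for H3K27ac and 3.80% for H3K27me3, and chromosome 11 had 27.7% and 26.6%.

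The bins with most H3K27ac lay on chromosomes 10 and 11. Chromosome 10 80 to 81 Mb held 218.1 kb of H3K27ac in 162 peaks and 23.4 kb of H3K27me3, and its neighbour at 79 to 80 Mb held 200.3 kb and 44.3 kb. Chromosome 11 117 to 118 Mb held 201.7 kb of H3K27ac and 10.9 kb of H3K27me3. In ES48 these 3 megabases, in the order named, held 217.9, 179.5 and 198.1 kb of H3K27ac, from a list that covers 47.3 Mb in all against 35.1 Mb in ES49.

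The bins with most H3K27me3 lay on chromosomes 11 and 2, and some of them adjoined a bin rich in H3K27ac. Chromosome 11 96 to 97 Mb held 346.4 kb of H3K27me3 in 195 peaks and 45.1 kb of H3K27ac, and the bin to its right, 97 to 98 Mb, held 35.1 kb and 188.8 kb and was called for neither. Chromosome 11 118 to 119 Mb held 306.2 kb of H3K27me3 in 247 peaks, next to the acetylated 117 to 118 Mb named above. Chromosome 2 31 to 32 Mb held 153.4 kb of H3K27me3 and 29.0 kb of H3K27ac, between 30 to 31 Mb with 3.95 kb and 163.2 kb and 32 to 33 Mb with 3.98 kb and 148.5 kb. Of 2405 pairs of neighbouring bins, 226 were both called for H3K27ac, 49 were both called for H3K27me3 and 94 joined unlike calls, with 655 and 225 of the 2424 bins called. Unlike pairs outnumbered pairs both called for H3K27me3. More bins were called for H3K27ac than for H3K27me3, which by itself favours unlike pairs over pairs both called for H3K27me3. Whether unlike pairs were more or fewer than these numbers of called bins would give was not tested.

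The Hox clusters, the best known Polycomb targets of mammals, order the body axis in the embryo and are silenced in part in most adult cells. No mm9 annotation was used, and the clusters were placed to the nearest megabase from general knowledge of the mouse map. The bin of HoxB is chromosome 11 96 to 97 Mb, the bin with most H3K27me3 in the genome, and its widest H3K27me3 peaks are the 35.3 and 26.0 kb peaks described above. The bin of HoxD, chromosome 2 74 to 75 Mb, held 124.4 kb of H3K27me3 and 4.42 kb of H3K27ac. The bin of HoxA, chromosome 6 52 to 53 Mb, was mixed, with 40.01 kb of H3K27me3 and 45.2 kb of H3K27ac, and its shares of the marks were within 4-fold of each other. The bin of HoxC, chromosome 15 102 to 103 Mb, held more acetylation, with 96.2 kb of H3K27ac and 14.3 kb of H3K27me3, and was within 4-fold too. Of the 4 Hox bins, those of HoxB and HoxD were thus called for H3K27me3 and those of HoxA and HoxC for neither mark. A megabase also holds genes outside the cluster.

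Megabases placed in the same way for genes that most cells use or that growing cells use were acetylated. The bin of Actb, which encodes beta-actin, is chromosome 5 143 to 144 Mb and held 75.9 kb of H3K27ac and 7.73 kb of H3K27me3. The bin of Gapdh, a glycolytic enzyme, is chromosome 6 125 to 126 Mb and held 48.4 kb and 0.619 kb. The bin of Myc, a transcription factor of cell growth, is chromosome 15 61 to 62 Mb and held 34.8 kb of H3K27ac and no H3K27me3 peak. Olfactory receptor genes are silent outside sensory neurons. In their cluster on chromosome 2, from 86 to 89 Mb, the lists had a single H3K27ac peak of 0.428 kb and no H3K27me3 peak.

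The longest tracts of 1 kind carried both marks, which was also the commonest kind of bin (46.8%). Bins with H3K27ac alone were 29.0%, with neither mark 17.9% and with H3K27me3 alone 6.23%. The lengths of runs were not tested against these shares. The longest run of bins with both was chromosome 11 57 to 81 Mb, 24 bins with 660 H3K27ac and 610 H3K27me3 peaks, followed by 18 bins at chromosome 11 93 to 111 Mb. The longest run with neither was 7 bins at chromosome 15 14 to 21 Mb, where ES48 H3K27ac covered 0.918 kb. A run of 7 bins with H3K27ac alone, a length no other run of this kind passed, lay at chromosome 8 46 to 53 Mb, with 106 peaks. Runs with H3K27me3 alone ended at 2 bins, for example chromosome 1 61 to 63 Mb with 10 peaks.

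The relation of the marks turned with the scale. In bins of 10 kb, 6.12% of the bins with H3K27me3 held H3K27ac, fewer than the 8.76% of all bins that did. In bins of 20 kb the shares were 11.4% and 13.9%. The order changed between 20 and 50 kb, where they were 25.5% and 24.2%. In bins of 100 kb they were 41.8% and 34.4%, and in bins of 1 Mb 88.3% and 75.9%. Bins with ES48 H3K27ac, by comparison, held ES49 H3K27ac in 77.4% of cases at 10 kb and 92.3% at 1 Mb. The rank correlation of covered lengths followed the same course, from -0.019 at 10 kb through 0.060 at 100 kb to 0.711 at 10 Mb. Most 10 kb bins hold no peak of either list, so the value near 0 there is no finding of its own.

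**Figure D3:**
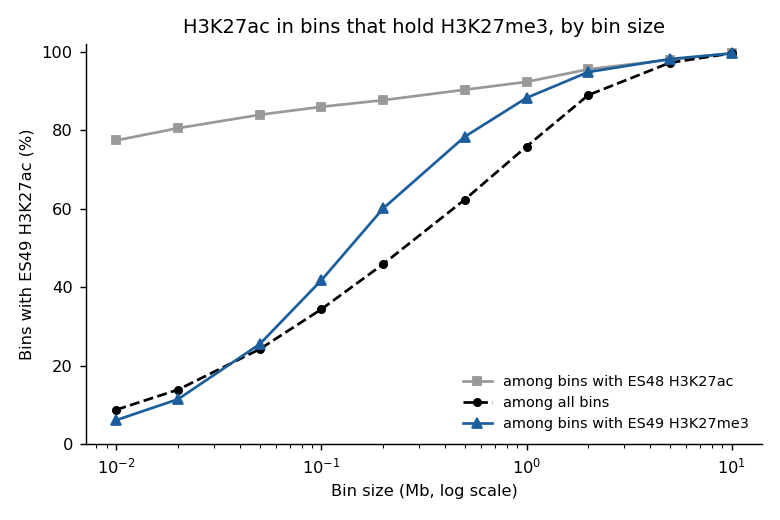
Percent of bins that hold ES49 H3K27ac (y axis) against bin size in Mb (x axis, logarithmic), among bins with ES49 H3K27me3 (triangles), among all bins (circles, dashed) and among bins with ES48 H3K27ac (squares). The triangles lie under the dashed line at 10 and 20 kb (6.12% against 8.76% at 10 kb) and above it from 50 kb to 5 Mb (88.3% against 75.9% at 1 Mb).

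Peaks lay much closer to their own mark than to the other. The median gap from an H3K27ac peak to the nearest H3K27me3 peak was 188.3 kb (184.3 to 192.3; quartiles 72.2 and 467.2), where the nearest other H3K27ac peak was 1.99 kb away. The median gap from an H3K27me3 peak to the nearest H3K27ac peak was 70.0 kb (68.6 to 71.3; quartiles 30.8 and 136.1), and that to the next H3K27me3 peak 0.355 kb. The first gap was the longer also with the H3K27ac list cut to the 19412 peaks of highest score, the number in the H3K27me3 list, where the medians were 194.0 and 79.0 kb. The other mark was scarce at short range and frequent at longer range, set against the genome as a whole. Within 10 kb of H3K27me3 lay 3.90% of H3K27ac peaks and 5.49% of the autosomal length, and within 100 kb 32.3% of the peaks and 22.5% of the length. Within 10 kb of H3K27ac lay 8.57% of H3K27me3 peaks and 13.9% of the length, and within 100 kb 63.9% and 45.7%. A peak of the other mark was nearer than any of its own for 5.43% of H3K27ac peaks (5.17 to 5.70) and 5.51% of H3K27me3 peaks (5.19 to 5.84). Those shares and the gaps to the own mark depend on how the caller splits a region. Within 1 kb of another peak of their list lay 42.8% of H3K27ac and 68.6% of H3K27me3 peaks. Over 1 Mb from any H3K27me3 lay 11.01% of H3K27ac peaks and 719.5 Mb of the 2410 Mb. Over 1 Mb from any H3K27ac lay 0.711% of H3K27me3 peaks and 252.0 Mb. H3K27ac covered 0.362 times its autosomal mean over the 719.5 Mb far from H3K27me3. H3K27me3 covered 0.068 times its own mean over the 252.0 Mb far from H3K27ac.

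**Figure D4:**
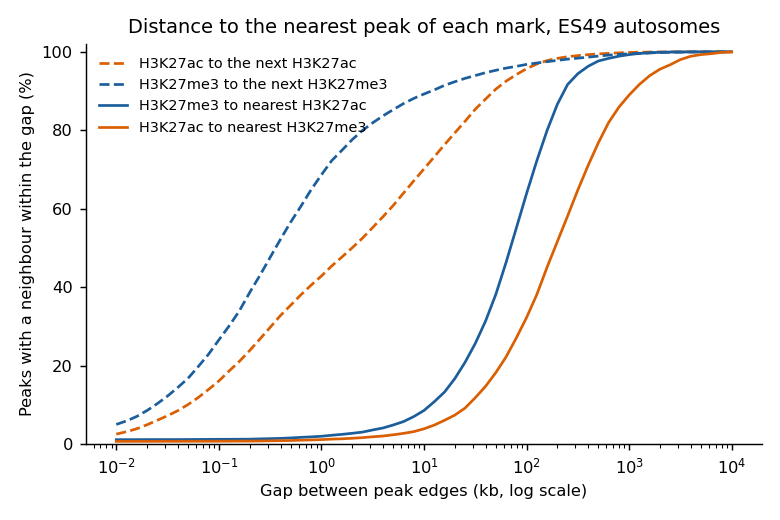
Percent of peaks with a neighbour within a given gap (y axis) against the gap between edges in kb (x axis, logarithmic), to the nearest peak of the other mark (solid) and to the next peak of the same mark (dashed), for H3K27ac (orange) and H3K27me3 (blue). The dashed curves pass 50% at 1.99 kb for H3K27ac and 0.355 kb for H3K27me3, the solid ones at 188.3 kb and 70.0 kb.

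Wide H3K27me3 peaks lay nearer to acetylation than narrow ones. The median gap to H3K27ac fell through each class of width, from 75.4 kb (73.5 to 77.1) for H3K27me3 peaks up to 0.5 kb to 68.3, 60.6, 57.5 and, over 5 kb, 47.4 kb (37.1 to 55.9). H3K27ac lay within 10 kb of 7.10% of the narrowest class (6.60 to 7.63) and 18.2% of the 274 widest (13.9 to 23.3). The order held for the caller's score, which follows width: the 4853 H3K27me3 peaks of lowest score were at a median of 77.8 kb from H3K27ac and the 4853 of highest score at 60.2 kb. H3K27ac showed no such order. Its median gap to H3K27me3 was 182.9, 196.1, 192.2, 183.8 and 165.7 kb through the same classes, and the interval of the 339 widest (130.7 to 195.1) took in the medians of all other classes but the 0.5 to 1 kb class.

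The gaps also differed by chromosome, and their relation to the densities was not tested. The median gap from H3K27ac to H3K27me3 was shortest on chromosome 11, at 89.1 kb, and longest on chromosome 16, at 400.8 kb. From H3K27me3 to H3K27ac it ran from 45.6 kb on chromosome 11 to 97.5 kb on chromosome 1. Chromosome 10 had a short gap from its few H3K27me3 peaks to H3K27ac (57.1 kb) and a long one in the other direction (296.0 kb).

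Read in order along each chromosome, peaks came in long runs of 1 mark. Of 48402 pairs of neighbouring peaks, 4300 (8.88%, 8.63 to 9.14) differed in mark. With peaks of a list under 1 kb apart joined, the share was 13.3%, so it depends on how the caller splits a region. The gap was 7.07 kb at the median between neighbouring H3K27ac peaks, 0.830 kb between neighbouring H3K27me3 peaks and 39.7 kb (37.3 to 42.2) where the mark changed. There were 2165 runs of H3K27ac and 2154 of H3K27me3. The median H3K27ac run held 6 peaks over 140.6 kb, and the median H3K27me3 run 3 peaks over 10.7 kb. Runs of a single peak were 22.2% of H3K27ac and 26.9% of H3K27me3 runs. Runs of 20 peaks or more held 68.5% of all H3K27ac and 56.6% of all H3K27me3 peaks.

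The runs with most peaks had a different form in each mark. The H3K27me3 run at chromosome 4 153694819 to 154168689 had 173 peaks in 473.9 kb with no H3K27ac between them, and covered 27.8% of that stretch. That at chromosome 5 35449481 to 35869416 had 157 peaks in 419.9 kb. The run at chromosome 11 95956080 to 96424751, which holds the widest peaks of the list, had 135 peaks in 468.7 kb and covered 56.4% of it. The H3K27ac run with most peaks, chromosome 5 122582229 to 125726091, had 200 peaks spread over 3.14 Mb and covered 7.38% of it. The H3K27ac run at chromosome 10 79208162 to 79810825 was compact, with 131 peaks in 602.7 kb and 26.6% covered. The longest stretch without H3K27me3 between acetylated peaks was 21.5 Mb, at chromosome 16 57120932 to 78578143, with 53 H3K27ac peaks. The longest H3K27me3 run was 8.05 Mb, at chromosome 15 12995630 to 21041003, with 8 peaks, a sparse tract rather than a dense domain.

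Joining neighbouring peaks changed the number of H3K27me3 regions more than that of H3K27ac. With peaks under 5 kb apart joined, 19412 H3K27me3 peaks became 6384 domains of 3.04 peaks each and 29009 H3K27ac peaks became 16928 of 1.71. Which mark had the longer domains depended on the joining gap. The median H3K27me3 domain was the shorter at a gap of 1 kb (0.662 against 1.32 kb for H3K27ac) and at 50 kb (4.03 against 5.04 kb). It was the longer at 5 kb (1.75 against 1.57 kb), at 10 kb (2.24 against 1.74 kb) and at 20 kb (2.86 against 2.03 kb). Domains over 20 kb numbered 250 for H3K27me3 and 228 for H3K27ac at the 5 kb gap, but 484 and 741 at 10 kb and 735 and 1771 at 20 kb.

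Acetylation was sparse close to H3K27me3 and densest at a middle distance from it. H3K27ac covered 1.46% of the autosomes as a whole and 0.847% of the length inside H3K27me3 peaks. It covered 0.550% of the first 1 kb outside them, 0.856% at 2 to 5 kb and 1.12% at 5 to 10 kb. The share passed the mean at 10 to 20 kb (1.67%), reached 2.75% at 50 to 100 kb, 1.89 times the mean, and fell to 1.04% at 500 to 1000 kb and 0.527% beyond 1 Mb. H3K27me3 around H3K27ac had the same form, with 0.396% inside, 0.458% in the first 1 kb, 1.58% at 50 to 100 kb and 0.046% beyond 1 Mb, against a mean of 0.682%.

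The same form was seen within single chromosomes. Within 10 kb of H3K27me3, inside included, H3K27ac was below the chromosome's own mean on 18 of 19 chromosomes, at a median of 0.529 of it, from 0.278 on chromosome 5 to 1.24 on chromosome 10, the exception. From 20 to 200 kb it was above the mean on 19 of 19, from 1.34 to 2.12 times. H3K27me3 within 10 kb of H3K27ac was below the mean on 16 of 19, the exceptions being chromosomes 3, 10 and 18, and from 20 to 200 kb above it on 19 of 19.

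**Figure D5:**
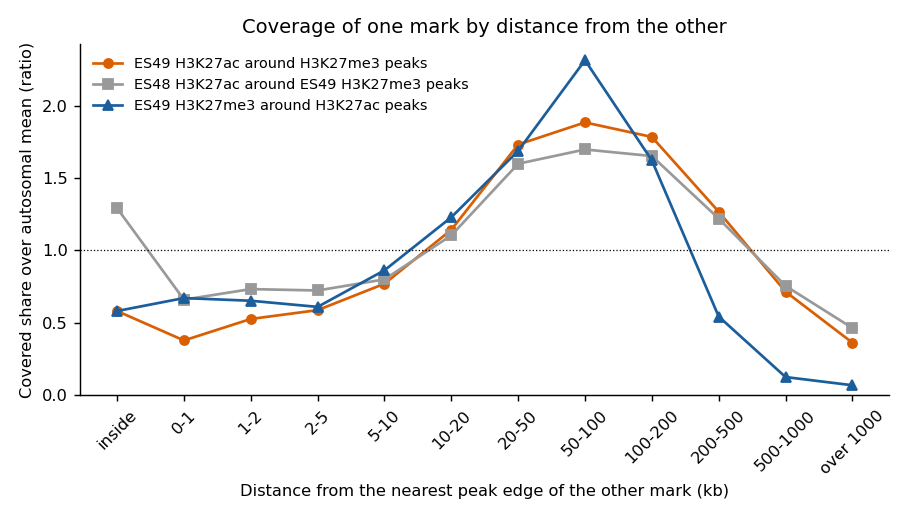
Covered share of a mark divided by its autosomal mean (y axis) by distance in kb from the nearest peak edge of the other mark (x axis), for ES49 H3K27ac around H3K27me3 (circles), ES48 H3K27ac around ES49 H3K27me3 (squares) and ES49 H3K27me3 around H3K27ac (triangles); the dotted line is the mean. All 3 curves lie under 1 from 0 to 10 kb outside the peak and peak at 50 to 100 kb, and inside the peaks the squares alone lie above 1 (2.54% against a mean of 1.96%).

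H3K27ac of ES48 and ES49 differed most inside the H3K27me3 peaks, among the distances measured. ES48 H3K27ac covered 2.54% of the length inside ES49 H3K27me3 peaks, 1.29 times its autosomal mean of 1.96%, where ES49 H3K27ac had 0.581 times its mean. Outside the peaks the lines were closer, with 0.660 and 0.378 times the mean in the first 1 kb and 1.70 and 1.89 times at 50 to 100 kb. Of ES48 H3K27ac peaks 1.55% overlapped ES49 H3K27me3, and of ES49 H3K27ac peaks 0.696% did. Whether ES48 carries H3K27me3 at these places was not measured in the lists used here.

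Width of the H3K27me3 peak also went with acetylation nearby. In the first 1 kb outside H3K27me3 peaks over 2 kb H3K27ac covered 0.963%, and outside those up to 0.5 kb 0.370%, both below the mean. At 50 to 100 kb the shares were 3.36% and 2.96%.

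Direct overlap in ES49 was rare, between lists that each cover little of the autosomes (1.46% for H3K27ac and 0.682% for H3K27me3). On the autosomes 202 H3K27ac peaks (0.696%) and 221 H3K27me3 peaks (1.14%) overlapped the other mark by at least 1 bp. The 238 overlaps shared 139.2 kb, 0.396% of the H3K27ac length, which is 0.581 times the share of the autosomes that H3K27me3 covers. In 120 overlaps the ends of 2 peaks met, in 68 an H3K27ac peak lay inside an H3K27me3 peak and in 50 the reverse. The median overlap was 395 bp. An ES49 EWS-FLI1 peak was called at 17 of the 238 overlaps (7.14%), at 72 of all H3K27ac peaks (0.248%) and at 32 of all H3K27me3 peaks (0.165%).

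The 5 longest overlaps outside chromosome 18 were as follows. The bin of HoxA held 8 overlaps with 20.7 kb, 14.9% of the shared length of the autosomes. There an 11.4 kb H3K27ac peak at chromosome 6 52173978 to 52185352 lay inside a 13.3 kb H3K27me3 peak at 52173920 to 52187190, and a 4615 bp H3K27ac peak at 52192726 to 52197340 inside a 7676 bp H3K27me3 peak. At chromosome 11 120094542 to 120099627 a 5086 bp H3K27ac peak lay inside a 7998 bp H3K27me3 peak. These 3 places had no EWS-FLI1 peak. At chromosome 17 39979797 to 39983664 and chromosome 1 87487588 to 87490085, with 3868 and 2498 bp shared, an H3K27me3 peak lay inside an H3K27ac peak and an EWS-FLI1 peak was called as well. From general knowledge of mm9, the chromosome 17 place is a copy of the repeated gene for the ribosomal RNA precursor. The input library was not analysed here, and the part of background signal in these overlaps was not tested.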

How the data were processed

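The deposited files are peak lists, 1 per sample. Reads were aligned to mm9, and Bowtie 1.1.1 and SAMtools 1.2 are named, per the submitters' processing notes. Peak names begin with MACS, whose version, settings and control were not given in the sources used here. The score in the deposited lists is the authors' caller's own, with no stated scale. It was ranked only within a list, and the share of scores below 100 is the only value set across lists. Read depth is unknown, and it can change the number and width of peaks. Chromosome shares, bin calls, concentration and coverage by distance therefore set each mark against its own total or mean. Covered length, peaks per Mb, widths, counts of bins with a mark, gaps, runs and joined domains were not scaled for depth. The other columns the authors deposited, starts and ends, give widths, gaps between edges (0 for overlap) and covered length per bin, bins running from the first to the last peak of any list. Interval functions were tested on simulated peaks. The members and regions were chosen with earlier results of these data known. Regions named were the bins, runs, widest peaks and longest overlaps at the top of each ranking, outside chromosome 18, plus the Hox, Actb, Gapdh, Myc and olfactory receptor bins. Alternatives were other cuts by score or width, joining, equal list lengths, bin sizes and chromosomes. The planned work on gene starts and peak sequence needs mm9 and was not run. ES49 input was not analysed here. Values were computed with pandas 2.3.3, numpy 2.4.6 and scipy 1.17.1 in Python 3.11.15 and drawn with matplotlib 3.10.9.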

Additional observations from a re-analysis of the deposited data

How the results depend on the processing

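No paired analysis was possible because each group is 1 sample. Of 122 alternative values 77 stayed close to the reported one (by its counting interval, a difference of 0.05 in a correlation, 5 percentage points for the share in the densest bins, or 1.5 times for a count of bins), 42 moved farther and 3 changed sign. Of the 77, 2 had to stay, since they are H3K27me3 values under a change of the H3K27ac list alone. The 3 are the rank correlation of the marks over bins, which was -0.019 in bins of 0.01 Mb and of 0.02 Mb and -0.281 in bins of 0.2 Mb with at least 1 mark. With at least 1 mark, a restriction chosen after seeing the data, it was 0.026 at 0.5 Mb and 0.264 at 1 Mb. Over all bins it was 0.0060 at 0.05 Mb, 0.060 at 0.1 Mb, 0.159 at 0.2 Mb, 0.317 at 0.5 Mb, 0.534 at 2 Mb, 0.656 at 5 Mb and 0.711 at 10 Mb. With bins of 0.5 Mb 1045 were called for H3K27ac, 408 for H3K27me3 and 29.5% held both marks, and with 2 Mb 373, 93 and 66.3%. With a 2-fold difference of shares 370 bins were called for H3K27me3 and with 8-fold 127. With X and Y the rank correlation over chromosomes was 0.636, and without chromosome 11 it was 0.422.

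The median gap from H3K27ac to H3K27me3 was 215.1 kb with H3K27ac of ES48, 193.2 kb with X and Y, 194.0 kb with lists of equal length, 207.8 kb without chromosome 11 and 247.6 kb with only the 50% of peaks that scored highest in either list. From H3K27me3 to H3K27ac it was 65.4 kb with ES48, 79.0 kb with equal lengths, 74.8 kb without chromosome 11, 74.5 kb with peaks under 1 kb apart joined and 83.1 kb with the highest-scoring 50%. The ratio of median widths was 2.97 with ES48, 2.66 with equal lengths, 1.99 with joined peaks and 2.08 with the highest-scoring 50%. Neighbouring peaks of different marks were 10.4% with ES48, 10.4% with equal lengths, 13.3% with joined peaks and 13.1% with the highest-scoring 50%, which left 40.6% of bins with both marks. The cause of these shifts was not tested beyond the construction of each alternative. Depth is unknown, so a place without a peak may hold the mark at a level the caller did not reach.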
